A study of Mus musculus with 18 samples.

Results

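Regulatory T cells (TR) of lymph node that carried the Id3 reporter were compared at 2 activation states, effector TR (Id3+ eTR) against central TR (Id3+ cTR). Each group held 3 libraries, so the comparison used 6 of the 18 libraries of the study and 12445 genes with enough counts to test. All groups came from the same 3 littermate mice (84, 86 and 87) on the C57BL/6 background, each carrying the Id3-GFP and the Foxp3-mRFP reporter, with no age stated in the labels. CD4+ T cells were enriched on beads from peripheral lymph nodes and from spleen, sorted on viability, CD4, CD44, CD62L and both reporters, and lysed as 500 cells per library. In the labels, Id3+ cTR were CD62L-high and CD44-low, Id3+ eTR were CD62L-low and CD44-high, and another population, Id3- eTR, lacked the Id3 reporter and served here only to place levels. The labels do not say whether the reporters replace an allele of Id3 or Foxp3, and no library lacked them.

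As background, TR are CD4+ T cells that hold immune responses in check and depend on the transcription factor Foxp3. Central TR circulate through lymphoid organs, which they enter from the blood through high endothelial venules, whereas effector TR have responded to antigen and can migrate into other tissues. Id3 and its relative Id2 bind E proteins, a family of transcription factors that recognise E-box sequences, and keep them off DNA.

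Library totals ran from 2111016 to 2824045 counts in Id3+ eTR and from 2593085 to 2988373 in Id3+ cTR. Between 14718 and 14809 genes were detected in Id3+ eTR and between 14214 and 14302 in Id3+ cTR, and mitochondrial genes took 0.385 to 0.548% of the counts. Levels are CPM, that is counts scaled to the library size after TMM, in which 1 count was worth 0.331 to 0.478 CPM, and 3 values given for a group always follow the order of mice 84, 86 and 87. Changes are edgeR log2 fold changes of Id3+ eTR over Id3+ cTR, given ± their standard error (SE). A gene was called where the Benjamini-Hochberg adjusted p of edgeR's two-sided quasi-likelihood test was under 0.05. That main fit held all 18 libraries and did not use the pairing of libraries by mouse. The replicates were separate mice, although littermates. Because these are bulk libraries, fewer cells of a type and less RNA per cell cannot be told apart.

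The genes used in the sort and those encoding E and Id proteins were examined first. Cd44, the adhesion receptor that marks antigen-experienced T cells, stood at 92.7, 45.0 and 106 CPM in Id3+ cTR and at 248, 196 and 156 CPM in Id3+ eTR, a log2 change of 1.30 ± 0.25 (adjusted p = 0.00352). Every Id3+ eTR library lay above every Id3+ cTR library. This change follows the gates and is no independent finding, and in a fit of only these 6 libraries with the mouse as a block, called the paired 6-library fit here and added after the data were seen, Cd44 had an adjusted p of 0.0807. Id3 itself was at 282, 244 and 282 CPM in Id3+ cTR and at 289, 296 and 304 CPM in Id3+ eTR. The sort held Id3+ cells in both groups, and the difference of 0.14 ± 0.15 did not pass the test (adjusted p = 0.76). In Id3- eTR the gene stood at 61.3, 83.7 and 69.2 CPM. Foxp3 was at 268, 267 and 262 CPM in Id3+ cTR and at 237, 286 and 252 CPM in Id3+ eTR, with overlapping groups (-0.04 ± 0.14, adjusted p = 0.958). Cd4 overlapped as well (0.19 ± 0.16, adjusted p = 0.678).

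Among the E and Id proteins, 1 of the 6 genes tested was called, against 5.66% of all genes. Id2, the other widely expressed Id protein of T cells, stood at 104, 90.0 and 122 CPM in Id3+ cTR and at 214, 172 and 211 CPM in Id3+ eTR. It was higher in each mouse without overlap, by 0.92 ± 0.15 on the log2 scale (adjusted p = 0.000969). The E protein Tcf12 (HEB) had a difference of -0.23 ± 0.20 (adjusted p = 0.675) and Tcf3 (E2A) one of -0.22 ± 0.38 (adjusted p = 0.88), both with overlapping groups. Tcf4 (E2-2) was at 11, 4.96 and 1.06 CPM in Id3+ cTR and at 19.6, 18.2 and 18.7 CPM in Id3+ eTR. Its groups did not overlap, as was so for 13.5% of all genes in that direction, and it was not called (1.73 ± 0.78, adjusted p = 0.273). Id1 was near the limit of counting, at 0.331 to 6.04 CPM over both groups (-0.04 ± 1.06, adjusted p = 0.997). The median log2 change of the 6 genes was 0.05, beside 0.00 over all genes tested.

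Promoter windows of 4 called genes are printed here as examples of the called genes described below: the surface receptors Tigit and Nrp1, the chromatin organiser Satb1, and Id2. They were chosen after their values were seen. Each window runs from 250 bases before to 50 bases after the annotated start in the RefSeq table for GRCm38.p6, 5′ to 3′ on the gene's strand. The positions are chr16:43664135-43664434 (minus strand) for Tigit, chr8:128358823-128359122 (plus strand) for Nrp1, chr17:51833241-51833540 (minus strand, the first of 5 windows) for Satb1 and chr12:25096043-25096342 (minus strand) for Id2. Capitals mark the E-box variants searched on both strands, CAGCTG as well as CAGGTG with its reverse complement CACCTG.
Tigit: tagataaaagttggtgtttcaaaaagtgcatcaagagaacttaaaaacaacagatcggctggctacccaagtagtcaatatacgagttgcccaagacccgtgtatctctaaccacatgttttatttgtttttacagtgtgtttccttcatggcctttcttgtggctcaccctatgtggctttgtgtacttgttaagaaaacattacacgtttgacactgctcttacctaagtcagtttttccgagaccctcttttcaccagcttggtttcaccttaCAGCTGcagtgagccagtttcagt
Satb1: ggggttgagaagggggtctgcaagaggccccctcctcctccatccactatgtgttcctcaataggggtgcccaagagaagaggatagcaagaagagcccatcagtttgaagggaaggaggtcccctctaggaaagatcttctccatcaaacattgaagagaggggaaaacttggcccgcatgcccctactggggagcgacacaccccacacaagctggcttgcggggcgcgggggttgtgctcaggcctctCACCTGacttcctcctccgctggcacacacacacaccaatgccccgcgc
Id2: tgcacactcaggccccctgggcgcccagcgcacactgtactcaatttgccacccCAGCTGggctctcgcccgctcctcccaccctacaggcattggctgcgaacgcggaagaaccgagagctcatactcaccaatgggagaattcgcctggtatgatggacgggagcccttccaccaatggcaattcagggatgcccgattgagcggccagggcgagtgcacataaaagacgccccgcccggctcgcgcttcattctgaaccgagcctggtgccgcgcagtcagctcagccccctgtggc
Nrp1: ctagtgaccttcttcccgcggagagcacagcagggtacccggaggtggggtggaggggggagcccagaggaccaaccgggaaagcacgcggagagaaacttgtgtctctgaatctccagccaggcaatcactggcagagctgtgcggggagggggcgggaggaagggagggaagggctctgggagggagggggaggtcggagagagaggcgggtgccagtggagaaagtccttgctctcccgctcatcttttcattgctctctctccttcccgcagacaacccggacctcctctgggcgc
Tigit held 1 CAGCTG, Id2 held 1 CAGCTG and Satb1 held 1 CACCTG, while none of these letters occurred in the Nrp1 window. Of all 32851 windows in the table, 16.3% held CAGCTG, 20.2% held CAGGTG or CACCTG, and 32.9% held at least 1 of them. Among the 11276 windows of genes tested here, these shares were 15.1, 17.7 and 29.9%. A match describes the letters only, and no binding was measured.

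Across all genes, 523 of 12445 were called higher in Id3+ eTR (4.20%) and 182 were called lower (1.46%), so that 74.2% of the 705 called genes were higher. The counts of each gene list below are to be read beside these shares. Every called gene had the same direction in 3 of 3 mice, and 520 of the higher and all 182 of the lower genes had groups that did not overlap. Of all genes tested, 13.5% lay higher and 11.3% lower without overlap. The calls rest on these same libraries and largely fix such separation, so it is no added support. A fold of 2 or more was reached by 396 of the higher and by 74 of the lower genes, and a fold of 4 or more by 266 and 21. Genes called higher started from a low level, with a median of 11.9 CPM in Id3+ cTR, and 111 of them had at most 3 counts there over the 3 libraries. Genes called lower had a median of 191.5 CPM in Id3+ cTR. The median change within a mouse was 1.82, 1.82 and 1.85 over the genes called higher and -0.95, -0.87 and -0.86 over those called lower. These medians come from the libraries that made the calls and are no separate support either. Both counts fell whichever single library of the 6 was left out, which also leaves fewer replicates. Lower genes numbered 119, 118 and 125 without the Id3+ eTR library of mouse 84, 86 and 87. They numbered 113, 112 and 93 without the Id3+ cTR library of mouse 84, 86 and 87. Higher genes numbered 365 to 417 over these fits. In the paired 6-library fit, 11233 genes were tested, 231 were called higher and 107 lower.

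**Figure D1:**
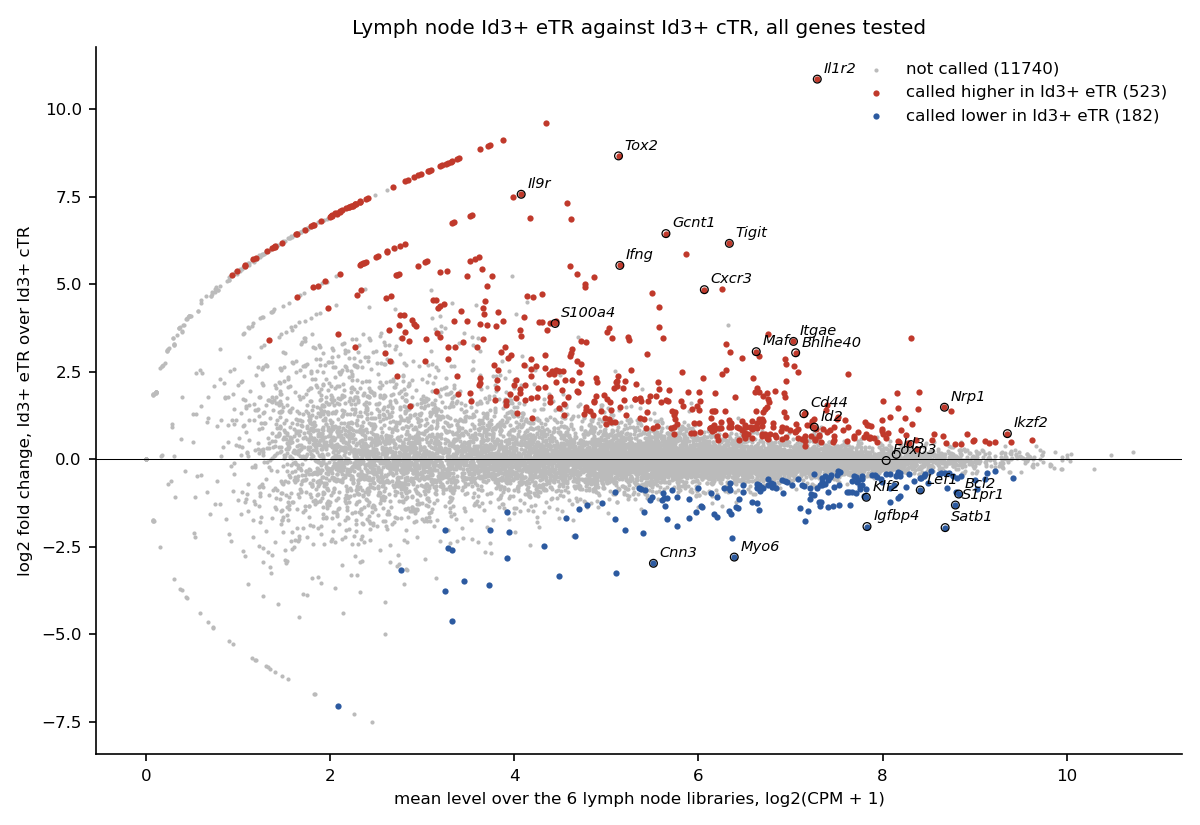
Each point is 1 of the 12445 genes tested, with its mean level over the 6 lymph node libraries as log2(CPM + 1) on the x axis and its fitted log2 fold change of Id3+ eTR over Id3+ cTR on the y axis. The 523 red points were called higher and the 182 blue points lower. The curved bands at the left edge are genes with 0 or few counts in 1 group, whose fitted folds depend on the prior count. Blue points lie mainly at middle and high levels, and red points cover the whole range.

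The identity genes of T cells and TR were largely shared by both groups, with a subset of TR genes higher in Id3+ eTR. None of 12 T cell identity genes, such as Cd3e and Lck, was called by edgeR (median log2 change 0.18), while 3 had an unadjusted p under 0.05 and DESeq2 called 1 higher. Of 18 core TR genes, 7 were called higher and none lower (median 0.43). The higher count was 5 without the Id3+ eTR library of mouse 84 or the Id3+ cTR library of mouse 86. Without the Id3+ eTR library of mouse 87, 1 gene of the list was called lower. Nrp1, the semaphorin and VEGF receptor that is abundant on TR of thymic origin, stood at 221, 236 and 185 CPM in Id3+ cTR and at 587, 624 and 589 CPM in Id3+ eTR. The Id3+ eTR libraries lay close together and far above the others, a change of 1.49 ± 0.09 (adjusted p = 4.06e-08). Nt5e (CD73), which makes adenosine from AMP, rose from 162, 205 and 171 to 534, 459 and 464 CPM (1.43 ± 0.17, adjusted p = 6.67e-05). Itgae, the αE integrin (CD103) that binds E-cadherin, rose from 37.5, 16.5 and 15.3 to 270, 222 and 219 CPM (3.37 ± 0.48, adjusted p = 0.000288). Both genes were separated in every library. Ikzf2 (Helios) and Ctla4, the competitor of CD28 for its ligands, rose less, by 0.73 ± 0.14 (adjusted p = 0.00336) and 0.54 ± 0.10 (adjusted p = 0.00379). In the paired 6-library fit Ctla4 had an adjusted p of 0.0519. Izumo1r and Tnfrsf4 (OX40) were also called, at 0.49 and 0.52. The call of Izumo1r ended without the Id3+ eTR library of mouse 84 (adjusted p = 0.0633) or the Id3+ cTR library of mouse 86 (0.0501). The call of Tnfrsf4 ended without the Id3+ eTR library of mouse 84 or 86 (0.13 and 0.0546) or the Id3+ cTR library of mouse 86 or 87 (0.139 and 0.0701). Il2ra, the high-affinity chain of the IL-2 receptor, was at 594, 667 and 707 CPM in Id3+ cTR and at 625, 580 and 525 CPM in Id3+ eTR, and was not called (adjusted p = 0.674).

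Of 13 transcription factors of resting T cells, 8 were called lower in Id3+ eTR and none higher (median log2 change -0.62). Satb1, a chromatin organiser of T cells, stood at 611, 657 and 685 CPM in Id3+ cTR and at 150, 157 and 195 CPM in Id3+ eTR. The highest Id3+ eTR library was far below the lowest Id3+ cTR library, a change of -1.95 ± 0.13 (adjusted p = 5.66e-08). Lef1, a partner of β-catenin, fell from 462, 439 and 418 to 232, 238 and 246 CPM (-0.88 ± 0.09, adjusted p = 9.11e-06). Bach2, a repressor of effector genes, fell from 181, 266 and 219 to 75.0, 106 and 101 CPM (-1.23 ± 0.17, adjusted p = 0.000183). Klf2, which drives the genes of recirculation, fell from 273, 312 and 337 to 120, 155 and 157 CPM (-1.09 ± 0.15, adjusted p = 0.000281). All 4 were without overlap. Txk, a Tec-family kinase carried in this list, fell by 1.34 on the log2 scale (adjusted p = 0.000105), Klf7 by 1.23 and Foxp1 by 0.60. Klf3 fell by 0.62 (adjusted p = 0.0152), a call that ended without the Id3+ eTR library of mouse 84 or 87 (0.0503 and 0.103) or the Id3+ cTR library of mouse 84 or 86 (0.0812 and 0.0507). Tcf7 (TCF1) was level, at 436, 431 and 432 CPM in Id3+ cTR and at 438, 431 and 412 CPM in Id3+ eTR (adjusted p = 0.978), while Id3- eTR had 133, 190 and 132 CPM. Foxo1 (-0.31) and Bcl11b (-0.13) were not called.

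Of 19 recirculation and naive surface genes, 10 were called lower and 1 higher (median log2 change -0.92). S1pr1, the sphingosine-1-phosphate receptor through which T cells leave lymphoid organs, stood at 616, 611 and 663 CPM in Id3+ cTR and at 224, 256 and 282 CPM in Id3+ eTR. The groups lay well apart, at -1.31 ± 0.13 (adjusted p = 6.16e-06). Igfbp4, a binding protein for insulin-like growth factors, fell from 380, 350 and 347 to 92.7, 117 and 74.1 CPM (-1.92 ± 0.35, adjusted p = 0.00254). Ly6c1 fell by 1.34, Treml2 by 1.64 and Pecam1 (CD31), an adhesion molecule, by 0.92 on the log2 scale, the last from 201, 274 and 292 to 137, 116 and 151 CPM (adjusted p = 0.00199). Ccr7, the receptor that guides T cells to lymph node chemokines, was at 626, 548 and 590 CPM in Id3+ cTR and at 478, 412 and 443 CPM in Id3+ eTR. Its groups did not overlap, as in 11.3% of all genes in that direction, and it was not called (-0.40 ± 0.15, adjusted p = 0.153). Itga6, the α6 integrin, fell by 0.85 (adjusted p = 0.00851), a call that ended without the Id3+ eTR library of mouse 84 (0.052) or the Id3+ cTR library of mouse 87 (0.0515). Dapl1 (-2.18) lost its call without any single library other than that of Id3+ eTR of mouse 84 (adjusted p 0.0792 to 0.162). Tdrp (-2.10) lost it without the Id3+ eTR library of mouse 86 or 87 or the Id3+ cTR library of mouse 86 or 87 (0.0563 to 0.0709). Dapl1 and Tdrp also lost it in the paired 6-library fit (0.0501 and 0.137). Slamf6, a SLAM-family receptor and the 1 gene called higher (0.52 ± 0.12, adjusted p = 0.0152), lost it without the Id3+ eTR library of mouse 84 or the Id3+ cTR library of mouse 86 or 87 (0.0517 to 0.0752).

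Survival genes moved in both directions, with 2 of 16 called higher and 3 lower (median log2 change 0.06). Bcl2, the anti-apoptotic founder of its family, stood at 611, 618 and 583 CPM in Id3+ cTR and at 263, 325 and 320 CPM in Id3+ eTR. Each Id3+ eTR library was far below each Id3+ cTR library (-1.0 ± 0.12, adjusted p = 6.64e-05), and Id3- eTR were lower still, at 86.1, 88.0 and 88.0 CPM. Pmaip1 (Noxa), a BH3-only death gene, rose from 28.0, 35.7 and 33.0 to 90.3, 74.2 and 99.7 CPM (1.45 ± 0.26, adjusted p = 0.0025). Bcl2l11 (Bim), which opposes Bcl2, fell by 1.07 (adjusted p = 0.0235) and Casp8 by 0.39 (0.0319). These calls ended without any 1 of the 6 libraries (adjusted p 0.0648 to 0.105 for Bcl2l11 and 0.0777 to 0.114 for Casp8), so that 1 of the 3 lower calls held.

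Effector and lineage transcription factors were higher in Id3+ eTR in 9 of 22 genes and lower in none (median log2 change 1.17). Maf, a bZIP factor of IL-10-producing and follicular T cells, stood at 10.2, 29.1 and 22.4 CPM in Id3+ cTR and at 193, 180 and 153 CPM in Id3+ eTR. Bhlhe40, a repressor induced by T cell activation, stood at 40.5, 24.1 and 21.3 CPM and at 257, 219 and 232 CPM. Neither gene had an Id3+ eTR library near the Id3+ cTR range, with changes of 3.07 ± 0.25 (adjusted p = 1.11e-06) and 3.04 ± 0.26 (adjusted p = 1.48e-06). Rora, a nuclear receptor of tissue lymphocytes, rose from 47.7, 49.9 and 32.0 to 176, 220 and 211 CPM (2.23 ± 0.21, adjusted p = 4.65e-06). Nfil3 rose by 2.33 (adjusted p = 0.000224), Hif1a, the hypoxia factor, by 1.22 (0.000124), Tox by 1.13 (3.22e-06) and Batf, an AP-1 factor of effector TR, by 0.86 (7.96e-05). Zbtb32 rose by 3.21 from low levels (adjusted p = 0.00495, but 0.0525 in the paired 6-library fit). Ahr, the aryl hydrocarbon receptor, rose by 1.81 (0.00883), a call that ended without the Id3+ cTR library of mouse 84 (0.0512). Prdm1 (Blimp-1), a hallmark of effector TR that make IL-10, was at 20.8, 9.59 and 16.7 CPM in Id3+ cTR and at 14.3, 13.5 and 7.96 CPM in Id3+ eTR, with overlap (-0.40 ± 0.39, adjusted p = 0.728). Id3- eTR had 310, 288 and 320 CPM of it. Gata3 (0.58, adjusted p = 0.0535) was not called.

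**Figure D2:**
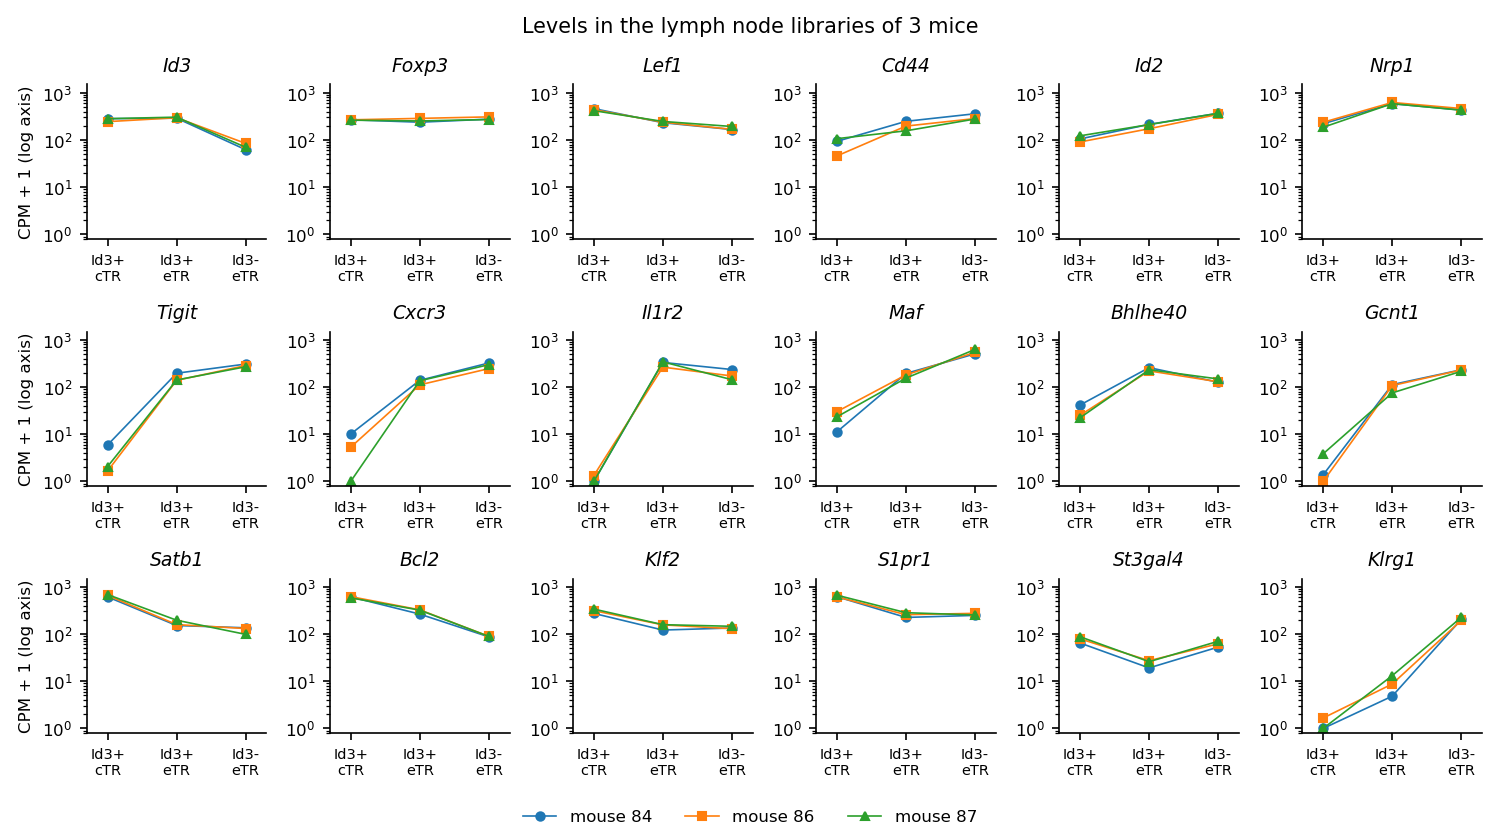
Each panel shows 1 gene as CPM + 1 on a log axis in the 3 lymph node populations, with 1 marker and line per mouse. Id3 and Foxp3 lie level between Id3+ cTR and Id3+ eTR, Tigit, Cxcr3, Il1r2, Maf and Gcnt1 step up in all 3 mice, and Satb1, Bcl2, Klf2 and S1pr1 step down in all 3. Klrg1 is low in both Id3+ populations and near 200 CPM in Id3- eTR.

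Homing receptors were called higher in 9 of 20 genes and lower in none (median log2 change 1.83). The median was 0.82 without the Id3+ eTR library of mouse 84 and 1.12 by limma-voom, and the paired 6-library fit called 3 of the 14 genes it tested higher and 1 lower. Cxcr3, the receptor for interferon-induced chemokines, stood at 9.08, 4.30 and 0 CPM in Id3+ cTR and at 138, 110 and 135 CPM in Id3+ eTR. Ccr6, which binds CCL20, stood at 24.6, 10.3 and 15.3 CPM and at 225, 193 and 177 CPM. In both cases Id3+ cTR were low and Id3+ eTR high without overlap, at 4.85 ± 0.40 (adjusted p = 1.11e-06) and 3.58 ± 0.32 (adjusted p = 2.21e-06). Ccr8 rose from 21.6, 18.2 and 29.1 to 187, 173 and 174 CPM (2.95 ± 0.41, adjusted p = 0.000214). Ccr4, a receptor of skin-homing cells, rose by 3.94 (0.000214) and Gpr15, a receptor of gut-homing cells, by 3.78 (0.000844). In the paired 6-library fit their adjusted p was 0.0542 and 0.0614, and Cxcr4 (0.117), Cxcr5 (0.0779) and Ptger4 (0.0948) were not called either. Cxcr5, which draws T cells to B cell follicles, rose from 61.7, 38.7 and 13.8 to 120, 140 and 128 CPM (1.77 ± 0.48, adjusted p = 0.0378). That call ended without any single library other than the Id3+ cTR library of mouse 84 (0.0753 to 0.145). Cxcr4 (1.07) lost its call without any single library other than the Id3+ cTR library of mouse 86 (0.068 to 0.153). Ptger4, a prostaglandin E2 receptor (0.67), lost it without the Id3+ eTR or the Id3+ cTR library of mouse 84 (0.0886 and 0.0798). Ccr2 had 2 counts in Id3+ cTR and 23 in Id3+ eTR, a CPM ratio of 12.9 with an interval of 3.18 to 113, and lost its call without the Id3+ eTR or the Id3+ cTR library of mouse 87 (0.225 and 0.066) and by limma-voom (0.327).

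Genes of adhesion and of selectin ligand synthesis split, with 7 of 17 called higher and 4 lower (median log2 change 0.84, or 0.43 with genes at the counting floor set to their bound). The median was 0.00 without the Id3+ eTR library of mouse 84 and 0.03 with no filter on low counts, and the paired 6-library fit called 5 of 15 higher and 2 lower. Itgb1, the β1 integrin, stood at 140, 130 and 151 CPM in Id3+ cTR and at 571, 507 and 519 CPM in Id3+ eTR. The 2 groups were each narrow and far apart (1.92 ± 0.12, adjusted p = 5.66e-08). Itgb8, part of an integrin that activates latent TGF-β, rose from 16.7, 23.5 and 22.4 to 164, 175 and 127 CPM (2.89 ± 0.26, adjusted p = 2.21e-06), and its partner Itgav rose by 1.63 (0.000891). Gcnt1, which builds the branched O-glycans of selectin ligands, stood at 0.379, 0 and 2.84 CPM in Id3+ cTR and at 111, 106 and 74.1 CPM in Id3+ eTR (6.45 ± 0.69, adjusted p = 1.89e-05). Chst2, a sulphotransferase of such ligands, rose by 3.95 (0.00515). St3gal4, a sialyltransferase, fell from 63.6, 78.0 and 86.6 to 18.2, 26.3 and 24.9 CPM (-1.71 ± 0.20, adjusted p = 3.4e-05). In Id3- eTR it stood at 51.9, 61.0 and 69.2 CPM. Itgb3, the β3 integrin, fell by 1.17 (0.00571). St3gal6 (-1.41) lost its call without any Id3+ eTR library or the Id3+ cTR library of mouse 87 (0.0584 to 0.144), and Itga4, the α4 integrin (-0.41), lost it without any 1 of the 6 (0.0794 to 0.168). Itgal, the αL chain of LFA-1 (0.84), lost it without the Id3+ eTR or the Id3+ cTR libraries of mouse 86, the Id3+ eTR library of mouse 84 or the Id3+ cTR library of mouse 87 (0.0571 to 0.0793). The count of lower genes in this list was thus 2 without any Id3+ eTR library or without the Id3+ cTR library of mouse 87. Chst2 (0.0542), Itgav (0.0563), Itgb3 (0.0559), St3gal6 (0.0966) and Itga4 (0.0507) were not called in the paired 6-library fit, nor Itga4 by limma-voom (0.0653).

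Inhibitory receptors rose in 9 of 15 genes and fell in none (median log2 change 0.97), and in 4 of 13 in the paired 6-library fit. Tigit, which competes with CD226 for nectin-family ligands, stood at 4.92, 0.661 and 1.06 CPM in Id3+ cTR and at 195, 138 and 140 CPM in Id3+ eTR. It had the smallest adjusted p of all genes tested (6.17 ± 0.34, adjusted p = 3.27e-08), with every Id3+ eTR library far above the Id3+ cTR range. Pdcd1 (PD-1) rose from 43.5, 17.9 and 26.6 to 227, 228 and 187 CPM (2.87 ± 0.32, adjusted p = 2.55e-05). Pdcd1lg2, a ligand of PD-1, rose by 1.82 (0.00231), Cd200r1 by 1.10 (0.000271) and Cd200 by 0.86 (0.0034). Klrg1, a receptor of terminally differentiated lymphocytes, had 2 counts over the Id3+ cTR libraries and 63 over the Id3+ eTR libraries, a CPM ratio of 35.3 (interval 9.38 to 298). Its call ended by limma-voom (0.0682) and in the paired 6-library fit (0.0839). In Id3+ eTR it reached only 3.82, 7.73 and 12.1 CPM, against 203, 193 and 224 CPM in Id3- eTR. Cd160 (1.70) lost its call without the Id3+ eTR library of mouse 86 or 87 or the Id3+ cTR library of mouse 84 or 87 (0.0723 to 0.112). Cd274 (PD-L1, 0.55) lost it without any single library other than the Id3+ eTR library of mouse 87 (0.0591 to 0.119). Pdcd1lg2 (0.0534), Cd160 (0.0805) and Cd274 (0.0584) were not called in the paired 6-library fit. Lag3 stayed within 0 to 2.32 CPM and was not called (adjusted p = 0.757).

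Costimulatory and TNF family genes rose in 10 of 19 and fell in none (median log2 change 0.52). Icos, a CD28 relative that sustains effector TR, stood at 231, 256 and 221 CPM in Id3+ cTR and at 653, 633 and 569 CPM in Id3+ eTR. Both groups were narrow and well separated (1.39 ± 0.11, adjusted p = 5.02e-07). Tnfrsf9 (4-1BB) rose from 168, 163 and 223 to 478, 412 and 364 CPM (1.18 ± 0.18, adjusted p = 0.000702), and Tnfsf11 (RANKL) rose by 2.02 (0.00139). Tnfsf14 (LIGHT) had 1 count in Id3+ cTR and 162 in Id3+ eTR, a CPM ratio of 182 (interval 32.1 to 7215). For Tnfrsf8 (CD30) the counts were 1 and 82, a ratio of 91.9 (interval 16.0 to 3673). Cd28 (0.47) lost its call without the Id3+ eTR library of mouse 84 (0.0522). Tnfrsf1b, the TNF receptor 2 (1.54), lost it without any 1 of the 6 libraries (0.0505 to 0.117). Cd40lg (0.82) lost it without the Id3+ eTR library of mouse 84 or the Id3+ cTR library of mouse 84 or 86 (0.0595 to 0.0775). Cd80 (2.21) lost it without the Id3+ eTR library of mouse 86 or 87 or the Id3+ cTR library of mouse 84 or 87 (0.0897 to 0.156). Tnfrsf8 (0.0525), Tnfsf11 (0.0542) and Cd80 (0.0818) were not called in the paired 6-library fit. With Tnfrsf4, described above, the list's count was 6 without the Id3+ eTR library of mouse 84. None of 13 NF-kB genes, which act downstream of several of these receptors, was called by edgeR (median 0.19), while 5 had an unadjusted p under 0.05 and DESeq2 called 1 higher.

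Cytokine receptors were called higher in 7 of 30 genes and lower in none, with a median log2 change of 0.07 near that of all genes. Il1r2, the decoy receptor that takes up IL-1 without signalling, was at 0, 0.331 and 0 CPM in Id3+ cTR and at 331, 263 and 340 CPM in Id3+ eTR. It went from 1 count over 3 libraries to 2355, a CPM ratio of 2639 (interval 473 to 104286, counting error only), with an adjusted p of 1.09e-06 by edgeR. In Id3- eTR it stood at 234, 170 and 142 CPM. Il9r, the IL-9 receptor, went from 1 count to 245, a ratio of 275 (interval 48.8 to 10888). The 2 chains of the IL-18 receptor, Il18r1 and Il18rap, rose by 1.5 (adjusted p = 0.00129) and 3.93 (0.00598). Il1rl1 (ST2), the IL-33 receptor of tissue TR, rose from 10.2, 3.97 and 7.10 to 27.7, 23.6 and 11.8 CPM (1.56 ± 0.36, adjusted p = 0.0143). That call ended without the Id3+ eTR library of mouse 84 or 86 or the Id3+ cTR library of mouse 86 or 87 (0.0551 to 0.0792), and Id3- eTR had 213, 155 and 226 CPM. Il10ra (1.02) lost its call without any single library other than the Id3+ cTR library of mouse 87 (0.0572 to 0.13), and Tgfbr1 (0.85) without any other than the Id3+ eTR library of mouse 87 (0.0823 to 0.196). Il1rl1 and Il10ra also lost theirs by limma-voom (0.141 and 0.0843) and in the paired 6-library fit (0.167 and 0.053). The list's count was 4 without the Id3+ eTR library of mouse 84 or the Id3+ cTR library of mouse 86.

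Mediators were called higher in 7 of 21 genes and lower in none (median log2 change 1.43, or 0.94 without the Id3+ eTR library of mouse 84). Ebi3, a subunit of IL-27 and IL-35, rose from 16.3, 4.96 and 7.10 to 61.2, 76.5 and 89.7 CPM (3.01 ± 0.43, adjusted p = 0.000309). Areg (amphiregulin), a repair factor, rose from 6.06, 1.98 and 1.77 to 25.3, 28.2 and 24.2 CPM (2.99 ± 0.50, adjusted p = 0.00122). Penk, the enkephalin precursor, rose from 5.68, 69.1 and 20.2 to 264, 235 and 141 CPM (2.73 ± 0.54, adjusted p = 0.00536). None of the 3 overlapped between groups, and each varied among the Id3+ cTR libraries, Penk most. In the paired 6-library fit Penk had an adjusted p of 0.0719. Cytokine genes that conventional T cells also use were called. Ifng rose from 0.379, 3.64 and 0 to 95.6, 51.4 and 55.7 CPM (5.54 ± 0.75, adjusted p = 0.000183), and Il4 from 0 counts to 51, at least 19.1-fold higher against a floor of 3 counts over the group (adjusted p = 0.00149, but 0.106 in the paired 6-library fit). Ccl5 rose from 3.79, 2.31 and 6.75 to 183, 30.5 and 53.3 CPM (4.36 ± 0.64, adjusted p = 0.000399). Il10, the cytokine of fully differentiated effector TR, was at 1.51, 0.331 and 0 CPM in Id3+ cTR and at 4.78, 1.93 and 1.38 CPM in Id3+ eTR, and was not called (adjusted p = 0.506). Id3- eTR had 208, 249 and 269 CPM. Gzmb was at most 7.28 CPM in any Id3+ library and at 312, 251 and 310 CPM in Id3- eTR.

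Genes of follicular TR, which control germinal centres, were called higher in 10 of 15 and lower in none (median log2 change 1.77, or 2.79 without the Id3+ cTR library of mouse 84). Tox2, an HMG-box factor of follicular T cells, was at 0.379, 0 and 0 CPM in Id3+ cTR and at 61.6, 66.1 and 76.5 CPM in Id3+ eTR, 1 count against 521 (ratio 584, interval 104 to 23105). Angptl2 had 2 counts against 257, a ratio of 144 (interval 39.5 to 1195), and its call ended by limma-voom (adjusted p = 0.0708). Both were close to absent in Id3+ cTR. Sh2d1a (SAP), the adaptor of SLAM receptors, rose from 125, 123 and 114 to 287, 249 and 250 CPM (1.12 ± 0.12, adjusted p = 2.55e-05). Ascl2, a bHLH factor that favours follicular T cells, had 0 counts against 60 and was at least 22.4-fold higher. Its call ended without any single library other than the Id3+ eTR library of mouse 84 (0.0673 to 0.109), and with the mouse as a block in all 18 libraries it had an adjusted p of 0.0548, and by limma-voom one of 0.0761. Pou2af1, with 1 count against 56 (ratio 62.8, interval 10.8 to 2523), lost its call without the Id3+ eTR library of mouse 84 or the Id3+ cTR library of mouse 84 or 86 (0.0585 to 0.0732), by limma-voom (0.0526) and in the paired 6-library fit (0.0683). Bcl6, the master factor of follicular cells, was at 6.81, 10.9 and 11.4 CPM in Id3+ cTR and at 29.1, 39.8 and 24.2 CPM in Id3+ eTR. Its groups did not overlap, as in 13.5% of all genes in that direction, and it was not called (1.67 ± 0.53, adjusted p = 0.0864). Cxcr5, Pdcd1, Icos, Tox and Slamf6 of this list are described above, and without the Id3+ cTR library of mouse 86 the list's count was 6.

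**Figure D3:**
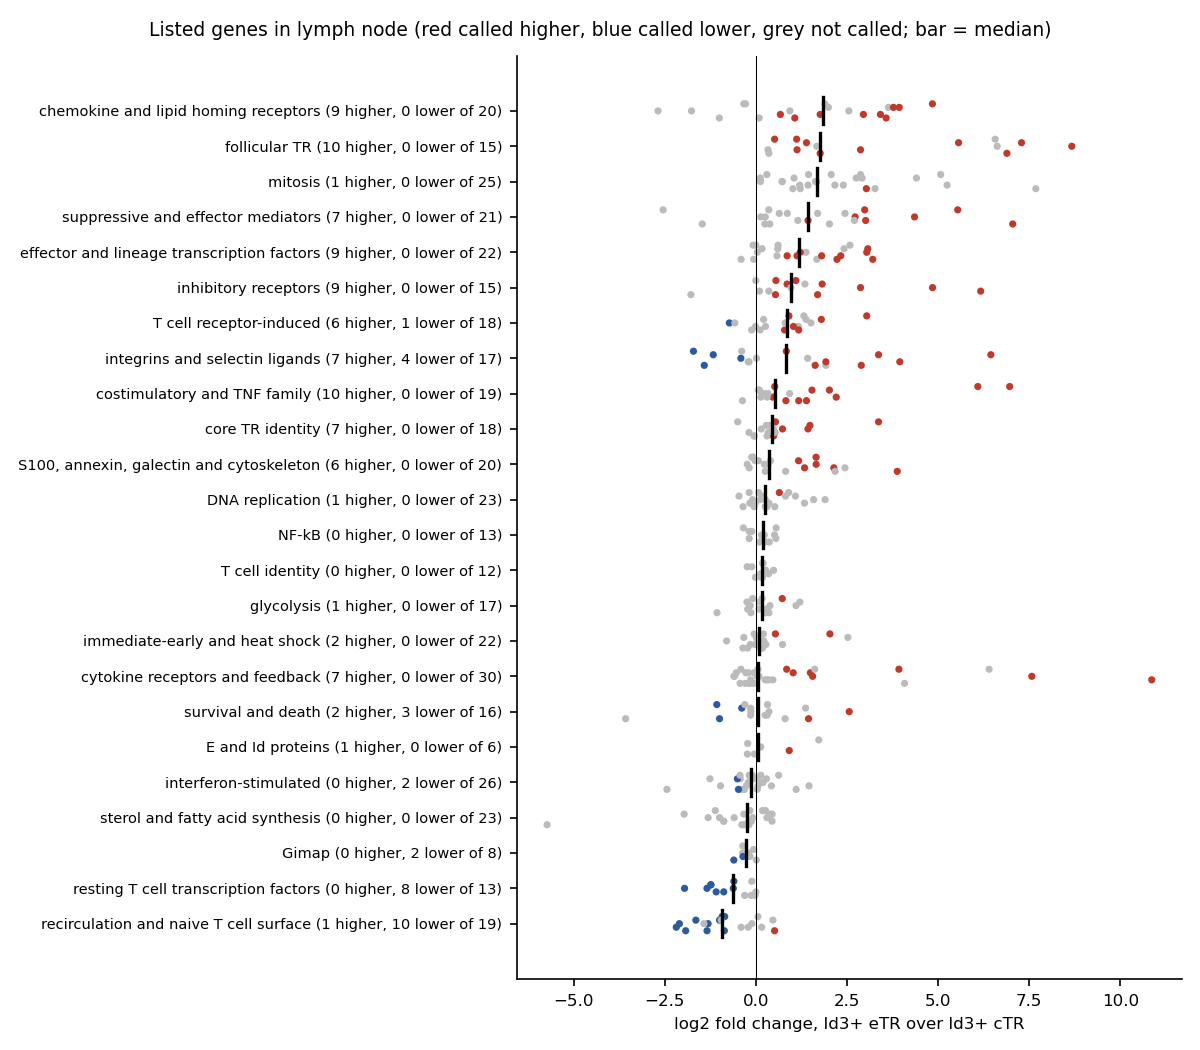
Each point is a tested member of a gene list, placed by its log2 fold change of Id3+ eTR over Id3+ cTR, with called genes in red (higher) or blue (lower), other genes in grey and the list median as a bar. Lists are ordered by median. Homing receptors, follicular TR genes, mitosis genes, mediators, effector transcription factors and inhibitory receptors lie to the right. Of these, the mitosis list had only 1 gene called. Recirculation genes and resting transcription factors lie to the left, with 10 and 8 genes called lower.

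Genes induced by T cell receptor signals were called higher in 6 of 18 and lower in 1 (median log2 change 0.86). Rgs16, which dampens chemokine receptor signals, rose from 24.2, 64.8 and 48.3 to 162, 162 and 155 CPM (1.80 ± 0.29, adjusted p = 0.000853). Nfatc1, a transcription factor activated by calcium, rose by 0.91 (0.00599) and Ldlrad4 by 0.79 (0.0111). Spry1, a feedback inhibitor of Ras signals, rose by 1.03 (0.0101), a call that ended without the Id3+ cTR library of mouse 86 (0.0575). Myc, the growth regulator, went the other way, from 246, 278 and 290 to 153, 189 and 150 CPM (-0.73 ± 0.15, adjusted p = 0.00687). Its groups did not overlap. Egr2 (1.32, adjusted p = 0.13) and the Nr4a genes (Nr4a1 -0.11, Nr4a2 1.17, Nr4a3 1.51) were not called.

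Of 20 S100, annexin and cytoskeletal genes, 6 were called higher and none lower (median log2 change 0.37). S100a4, a calcium-binding protein of motile cells, stood at 2.65, 2.31 and 2.84 CPM in Id3+ cTR and at 37.3, 52.9 and 26.7 CPM in Id3+ eTR. Ahnak, a large scaffold protein, stood at 132, 121 and 118 CPM and at 424, 430 and 315 CPM. Both were far apart between groups, at 3.88 ± 0.29 (adjusted p = 4.58e-07) and 1.65 ± 0.12 (2.43e-07). S100a6 rose by 2.14 (1.89e-05), Anxa2 by 1.34 (0.000336) and S100a11 by 1.17 (0.00268). Anxa4 (1.66) lost its call without the Id3+ eTR or the Id3+ cTR library of mouse 86 or of mouse 87 (0.0522 to 0.11). S100a11 (0.069) and Anxa4 (0.158) were not called in the paired 6-library fit.

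Growth, metabolic and interferon genes were called at shares near the 5.66% of all genes: 4.35% of DNA replication, 4% of mitosis, 5.88% of glycolysis and 7.69% of interferon-stimulated genes. Mki67, the proliferation marker, stood at 5.68, 7.28 and 2.13 CPM in Id3+ cTR and at 73.1, 22.8 and 30.1 CPM in Id3+ eTR, without overlap and highest in mouse 84 (3.03 ± 0.50, adjusted p = 0.00117, but 0.0531 by limma-voom and 0.0542 in the paired 6-library fit). It was the only call among 25 mitosis genes, whose median was 1.67 (0.67 without the Id3+ eTR library of mouse 84 and 2.92 without the Id3+ cTR library of mouse 84), while 24 of 24 others had a positive change. The summed level of the list was 243 to 749 CPM in Id3+ eTR and 133 to 256 CPM in Id3+ cTR, so the groups overlapped. DESeq2 called 4 of the list higher and limma-voom 0. The edgeR count was 2 without the Id3+ eTR library of mouse 86 and 3 without that of mouse 87. Of 23 DNA replication genes, Mcm6 (0.65, adjusted p = 0.044) was called, and not without the Id3+ eTR library of mouse 84 or 87 or the Id3+ cTR library of mouse 86 or 87 (0.108 to 0.201). Of 17 glycolysis genes Tpi1 alone was called, from 82.1, 75.1 and 73.5 to 130, 128 and 123 CPM (0.72 ± 0.16, adjusted p = 0.00874). None of 23 sterol and fatty acid synthesis genes was called by edgeR (median -0.25) or DESeq2, and 5 had an unadjusted p under 0.05. Of 26 interferon-stimulated genes, Gbp2 (-0.51) and Ly6a (-0.48) were called lower (median -0.14), and of 8 Gimap GTPases, Gimap7 (-0.60) and Gimap8 (-0.35) (median -0.27). Each of these 4 calls ended without several libraries. For Gbp2 this held for any but the Id3+ eTR library of mouse 84 (0.061 to 0.149), and for Ly6a for any but the Id3+ cTR library of mouse 86 (0.0865 to 0.159). Gbp2 (0.0683), Ly6a (0.0774) and Gimap8 (0.13) were not called in the paired 6-library fit, nor Ly6a by limma-voom (0.0553). Gimap8 kept its call only without the Id3+ cTR library of mouse 87 (0.0705 to 0.206 otherwise), and Gimap7 lost it without the Id3+ eTR library of mouse 84 or 86 or the Id3+ cTR library of mouse 84 or 87 (0.0548 to 0.0636). With the mouse as a block in all 18 libraries, the adjusted p was 0.0624 for Ly6a and 0.0521 for Gimap8.

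Immediate-early and heat shock genes, which respond to handling as well as to signals, were called in 2 of 22, both higher (median log2 change 0.09). That share, 9.09%, was near the 5.66% of all genes. Dusp1, a phosphatase of MAP kinases, rose from 650, 604 and 673 to 1073, 839 and 885 CPM (0.54 ± 0.11, adjusted p = 0.00606). Klf4, a Krüppel-like factor, rose from 11.7, 2.31 and 7.46 to 20.5, 35.9 and 31.2 CPM (2.03 ± 0.44, adjusted p = 0.0086, but 0.07 when only the 2 groups entered the fit and 0.156 in the paired 6-library fit). Fos (0.18), Jun (-0.33) and Hspa1a (0.01) were not called.

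The 8 genes called higher outside the lists, chosen by the same rule on level, included genes near the counting limit in Id3+ cTR. Cela1, an elastase, had 0 counts there and 205 in Id3+ eTR, at least 76.6-fold higher, and Rin2, an activator of Rab5, had 0 against 94, at least 35.1-fold higher. Nebl, an actin-binding protein, had 3 counts against 343 (ratio 128, interval 43.5 to 624). All 3 were detected in each Id3+ eTR library, at 25.6 to 30.1, 8.60 to 16.3 and 31.9 to 56.9 CPM. Their choice by 1 direction in 3 of 3 mice required that detection. Atp6v0d2, a proton pump subunit, had 2 against 111 (ratio 62.2, interval 16.8 to 520.0), C2cd4b had 3 against 156 (58.3, interval 19.6 to 286) and Asb2, a ubiquitin ligase adaptor, had 1 against 61 (68.4, interval 11.8 to 2744, adjusted p = 0.109 by limma-voom). Ttc39c rose from 3.41, 2.31 and 0 to 122, 102 and 114 CPM (5.86 ± 0.56, adjusted p = 4.65e-06) and Ier5l by 5.52 (0.000537). Rin2 (0.0652) and C2cd4b (0.0542) were not called in the paired 6-library fit.

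Outside the lists, 8 genes called lower were named among those whose mean log2 CPM reached 3, which fixes that their levels were measurable. Myo6, an unconventional myosin, fell from 151, 141 and 143 to 13.9, 15.8 and 32.2 CPM (-2.80 ± 0.38, adjusted p = 0.000198). Gpr146, an orphan receptor, fell from 125, 113 and 166 to 18.6, 31.3 and 34.6 CPM (-2.24 ± 0.26, adjusted p = 3.48e-05). Cnn3, a calponin that binds actin, fell from 100.3, 66.5 and 71.7 to 2.39, 6.96 and 20.1 CPM (-2.98 ± 0.63, adjusted p = 0.00765, but 0.0633 in the paired 6-library fit). None of the 3 overlapped. The other 5 lost their call without single libraries. Acpp, a phosphatase (-3.76), did so without the Id3+ eTR library of mouse 86 or 87 or the Id3+ cTR library of mouse 87 (0.066 to 0.0917). Foxk1, a forkhead factor (-2.01), did so without the Id3+ eTR library of mouse 84 or 86 or the Id3+ cTR library of mouse 87 (0.0521 to 0.102). Itih5 (-1.91) did so without the Id3+ eTR library of mouse 84 or 86 or the Id3+ cTR library of mouse 86 or 87 (0.0629 to 0.103). Sag, an arrestin (-2.08), kept its call only without the Id3+ cTR library of mouse 87 (0.0522 to 0.121 otherwise), and Prkd3, a protein kinase (-1.69), only without the Id3+ eTR library of mouse 86 (0.0628 to 0.122 otherwise). None of these 5 was called in the paired 6-library fit (0.0525 to 0.12), nor were Acpp (0.0721) and Foxk1 (0.073) by limma-voom.

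Markers of other cells that a CD4+ gate could admit had higher sums in Id3+ eTR in the myeloid, CD8 T and NK, and B cell lists. The 13 myeloid and dendritic markers summed to 220 to 464 CPM in Id3+ eTR and to 141 to 168 CPM in Id3+ cTR, and none of the 7 tested was called by edgeR (4 had an unadjusted p under 0.05, DESeq2 called 2 higher and limma-voom 1). Without the Id3+ cTR library of mouse 84, edgeR called 1 higher. Lyz2 was at 20.1, 6.28 and 4.97 CPM in Id3+ cTR and at 201, 53.3 and 190 CPM in Id3+ eTR (adjusted p = 0.0639). The defining markers Csf1r, Itgam and Adgre1 had 1, 2 and 1 counts over the 3 Id3+ eTR libraries. The CD8 T and NK markers summed to 187 to 421 CPM in Id3+ eTR and to 89.0 to 137 CPM in Id3+ cTR, and 2 of 8 were called higher. Those were Ccl5 and Nkg7, the latter at 38.6, 13.9 and 16.0 CPM in Id3+ cTR and 134, 101 and 163 CPM in Id3+ eTR (2.55 ± 0.35, adjusted p = 0.000206). Cd8a was at 0, 1.65 and 11 CPM and at 34.9, 5.41 and 27.3 CPM and was not called (adjusted p = 0.293), Cd8b1 was at 39.0 to 49.2 CPM in Id3+ eTR and 44.3 to 65.5 CPM in Id3+ cTR, and Ncr1 had 0 counts in all 6 libraries.

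B cell markers summed to 1214 to 1561 CPM in Id3+ eTR and 929 to 1176 CPM in Id3+ cTR. Of the 11 tested, 1 was called higher (9.09%, against 5.66% of all genes). That was Cd74, the invariant chain, from 162, 172 and 221 to 381, 288 and 305 CPM (0.81 ± 0.15, adjusted p = 0.00379, but 0.0569 in the paired 6-library fit), whereas Cd79a was lower in range in Id3+ eTR (5.26 to 14.3 against 15.2 to 23.1 CPM). Erythroid and platelet markers summed to at most 7.28 CPM in any of the 6 libraries, with Hba-a1 at 0 counts, and Cdh5 and Pdgfra were at 0 counts as well. Pecam1 was the only stromal and endothelial marker with enough counts to test. Of 8 markers of conventional CD4 T cells, which the Foxp3 gate removes, Cd40lg, Ifng and Il4 were called higher and Dapl1 and Igfbp4 lower. The part of any of these cells in the changes above was not tested.

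Several called genes also differed in level between the 2 eTR populations. The same Id3+ eTR libraries enter this comparison and the one above, with opposite sign, and the genes were chosen by the comparison above. The values therefore place levels and are no independent support, and a progression between populations was not tested. In Id3- eTR, Maf stood at 503, 542 and 625 CPM, 1.67 ± 0.22 above Id3+ eTR on the log2 scale (adjusted p = 0.000201). S100a4 was 2.25 ± 0.22 higher there (1.59e-05) and Klrg1 4.66 ± 0.40 higher (2.91e-06), Tigit 0.86 ± 0.22 higher (0.0468) and Cxcr3 1.17 ± 0.28 higher (0.0358). Nrp1 was at 431, 464 and 427 CPM, between the 2 Id3+ groups and 0.45 below Id3+ eTR on the log2 scale (-0.45 ± 0.09, adjusted p = 0.00962). Bhlhe40 (-0.82, adjusted p = 0.0815), Il1r2 (-0.77, 0.463), Itgb1 (-0.34, 0.166) and Tox (-0.36, 0.0839) did not pass the test between the eTR populations. Among the genes lower in Id3+ eTR, S1pr1 (0.02 ± 0.13, adjusted p = 0.983) and Klf2 (-0.09 ± 0.16, 0.901) had differences near 0, while Bach2 (-1.93 ± 0.18, 9.59e-06), Bcl2 (-1.79 ± 0.13, 4.55e-07) and Igfbp4 (-5.03 ± 0.51, 1.84e-05) were lower again in Id3- eTR. St3gal4 was 1.38 ± 0.20 higher in Id3- eTR than in Id3+ eTR (0.000463).

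The same 2 populations were sorted from the spleen of the same mice, which gave separate libraries for the comparison. There, 365 genes were called higher (2.93%) and 173 lower (1.39%). Of the genes called higher in lymph node, 237 were also called higher in spleen, which is 45.3% of the lymph node genes and 64.9% of the spleen genes. For lower genes the number was 53, or 29.1% and 30.6%. Among genes called higher in lymph node, 502 of 523 had a positive spleen change (median 1.38), and among those called lower, 152 of 182 had a negative one (median -0.48). Tigit was at 3.90, 4.0 and 2.47 CPM in spleen Id3+ cTR and at 72.0, 87.9 and 101 CPM in spleen Id3+ eTR (4.60 ± 0.35), and Satb1 went from 730, 686 and 869 to 331, 325 and 328 CPM (-1.22 ± 0.12). Both moved the same way as in lymph node. The change in lymph node minus that in spleen was 1.56 ± 0.60 for Tigit (adjusted p = 0.449), -0.74 ± 0.17 for Satb1 (0.279), -1.21 ± 0.27 for St3gal4 (0.261) and 2.38 ± 0.49 for Nkg7 (0.225).

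Tested over all genes, that difference between tissues passed the threshold for 0 genes in edgeR, with 1180 genes (9.48%) at an unadjusted p under 0.05 and a smallest adjusted p of 0.202. DESeq2 called 66 genes, 59 of them with a positive value of the lymph node change minus the spleen change, and limma-voom called 0. The sign does not give the tissue with the larger change: Satb1, at -0.73 in DESeq2, fell more in lymph node. Nkg7 passed in edgeR without the lymph node Id3+ cTR library of mouse 84 (adjusted p = 0.0376), and Ica1 did so without that of mouse 86 (adjusted p = 0.0326). The spleen Id3+ cTR libraries of mice 84 and 87 were the shallowest, at 1600782 and 1684461 counts with 0.652 and 0.579% mitochondrial counts, and the part of depth in the difference was not tested. A call made in 1 tissue and not in the other does not show that the tissues differ.

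**Figure D4:**
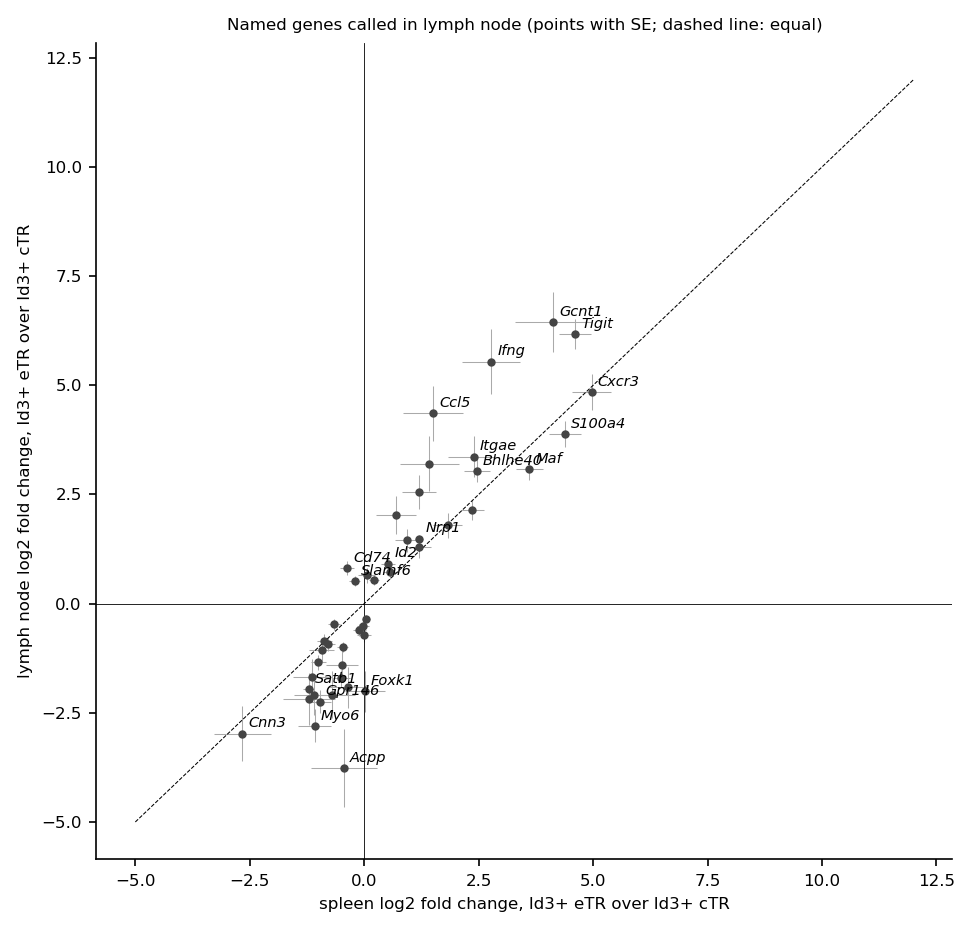
Each point is 1 of 46 genes, those named genes that were called in lymph node and had more than 3 counts in all 4 groups, placed by its log2 fold change of Id3+ eTR over Id3+ cTR in spleen (x axis) and in lymph node (y axis), with SE as bars. The dashed line marks equal change. Because the genes were chosen by their lymph node call, larger values on the y axis are favoured by the choice. Most points lie in the upper right and lower left, and Cd74 is above 0 in lymph node and below 0 in spleen.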

How the data were processed

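Gene counts came from the authors' deposited table, which holds whole-number counts with no normalization, per the file headers and the values. Reads were aligned and counted by the submitters, whose processing notes list SAMtools, Picard, FastQC, HTSeq 0.4.1, TopHat and Bowtie with no roles. The build they aligned to was not given in the sources used here. Symbols were found for 32919 of 37991 gene identifiers, and the 5072 others held 0.891% of counts. A second deposited table of normalized values was not used.

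Genes were kept with filterByExpr (minimum count 10), libraries scaled by TMM, and all 18 libraries fitted with 6 groups as terms (12 residual degrees of freedom) by edgeR 4.0.16 in R 4.3.3 (robust quasi-likelihood F test, two-sided), with Benjamini-Hochberg adjustment over 12445 genes. The SE is the absolute log2 fold change divided by the square root of F. Within-mouse differences used log2 CPM with a prior count of 2. With 0 counts in a group, folds are lower bounds against 3 counts over the group. With 1 to 3, they are CPM ratios with 95% exact intervals, which cover counting error only, and SMART-Seq reads carry no molecular identifiers. Same-numbered libraries came from the same animal by the labels, so the numbers pair. Their deviations from group means correlated at 0.0768, 0.0795 and 0.0321 across genes, against -0.0724 to -0.00419 for different mice. No 2 replicates agreed within sampling noise.

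The comparison and the 31 gene lists were chosen with earlier results of these data known. Named genes were the sort genes and E and Id proteins, the 2 called genes with the largest change in each direction per program list (1 per list of other-cell markers) and 8 in each direction outside the lists whose mean log2 CPM reached 3, leaving out predicted genes, all with 1 direction in 3 of 3 mice. Up to 5 genes called in the tissue difference would have been added. Other list members were named after their values were seen. Results of a few genes are not reported here, although they stay in the counts of their lists. Alternatives were RLE scaling, no filter, DESeq2 1.42.0, limma-voom (limma 3.58.1), fewer groups, mouse blocks and leaving out single libraries. The fit was tested on simulated data. A comparison of promoter motifs between gene sets was void, because 197 of 266 genes called at least 4-fold higher (74.1%) and 13 of 21 lower (61.9%) had a window in the RefSeq table.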

Additional observations from a re-analysis of the deposited data

Results flagged for a closer look

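Cd74, the invariant chain, stood out because all 3 mice moved up in lymph node and down in spleen. In spleen it was at 242, 313 and 325 CPM in Id3+ cTR and at 214, 201 and 267 CPM in Id3+ eTR (-0.37 ± 0.16, adjusted p = 0.197), against 0.81 ± 0.15 in lymph node. The lymph node change minus the spleen change was 1.18 ± 0.22 on the log2 scale, with an adjusted p of 0.202 in edgeR and of 0.000145 in DESeq2.

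Tcf3 (E2A) moved the opposite way in the same sense: all 3 mice were slightly lower in lymph node Id3+ eTR (-0.22 ± 0.38) and higher in spleen, from 34.5, 27.6 and 37.0 to 143, 35.8 and 57.9 CPM (1.27 ± 0.39, adjusted p = 0.0751). The difference was -1.49 ± 0.54, with an adjusted p of 0.422 in edgeR, and the spleen value of mouse 84 was far above the others.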

How the results depend on the processing

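Both counts of called genes kept within 1.5 times under RLE scaling, no filter, limma-voom and a fit of the compared groups alone. DESeq2 called 281 genes lower, and 66 genes for the difference between tissues, which was 0 in edgeR. With the mouse as a replicate block in all 18 libraries, 506 genes were called higher and 186 lower, of which 482 and 167 were also called without the block. With the 6 libraries of the comparison and the mouse as a block, an alternative chosen after seeing the data, 231 were called higher and 107 lower. That fit had fewer libraries and tested 11233 genes. The block ended the calls of Ascl2, Gimap8 and Ly6a among the 65 called named genes when all 18 libraries were used, and of 24 of 63 when 6 were used. Leaving out single libraries gave 365 to 417 genes higher, 93 to 125 lower and 0 to 1 for the difference between tissues. Of the 65 called named genes, 35 kept their call under every alternative and none reversed under any. The median change of all genes was at most 0.02 under any scaling. With 500 cells a library and a median SE of 0.31, small changes in genes of low level were not detectable at this depth. Larger changes could be missed too. In simulated counts with 200 genes changed in lymph node Id3+ eTR, 39% of 2-fold and 69% of 4-fold changes were called. A gene not called is thus not shown to be unchanged.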
